A study of Mus musculus with 4 samples.

Results

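The genes described here carry the names of the machinery that moves membrane between compartments: Rab GTPases with their effectors and TBC proteins, Arf and Arl GTPases, sorting nexins, and Vps proteins. Every gene name in the deposited region lists that begins with Rab, Arf, Arl, Snx or Vps followed by a number, or with Tbc1d, was taken. This gave 99 of the 10925 gene names, 97 of them protein-coding among 7090 protein-coding names. The other 2 are the antisense transcript Rab11fip4os2 and the pseudogene Rab7-ps1. A gene enters such a list only where at least 1 acetylated region was assigned to it, so trafficking genes with no region in either group are not among the 99.

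Acetylation of lysine 27 of histone H3 (H3K27ac), a chromatin mark found at promoters and enhancers in use, was measured by CUT&Tag, in which an antibody guides a transposase to the marked chromatin of isolated nuclei. Livers of C57/BL6J mice came from a sham operation (2 libraries) or were taken 12 h after removal of 70% of the liver by partial hepatectomy (2 libraries). Age and sex are not given in the labels used here, nor whether the libraries of a group came from separate animals. The authors merged the libraries of each group into 1 list of regions, giving positions and the peaks joined from each library but no signal per library. The unit of every result is therefore a region's presence or its width, each group is 1 list, and no difference below carries a test or a replicate check.

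Rab GTPases switch between a membrane-bound active form and a cytosolic inactive form, and each marks a particular compartment; exchange factors turn them on, and TBC domain proteins turn them off. Arf and Arl GTPases recruit coats, tethers and motors to Golgi, plasma membrane, lysosome and cilium. Sorting nexins bind endosomal lipids and, with retromer, return cargo from endosomes, while Vps proteins build retromer, ESCRT and the HOPS, CORVET and GARP tethers. In hepatocytes this traffic serves secretion of plasma proteins, uptake of ligands from blood, and delivery to the bile canaliculus.

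Promoter sequences are shown for the members that bear on the results. They come from RefSeq on build GRCm38.p6, whereas the regions are on GRCm39, so the coordinates of this paragraph and the next cannot be set against the regions. The first set holds the windows around every match to the CLEAR element (the E-box CACGTG with GT before it and AC after it), known for binding TFEB and related factors at lysosomal genes; each is printed 5′ to 3′ along its gene with the element in capitals. They are shown because, of the motifs searched, this one had the largest ratio between its share in these promoters and in the background.
Arl2, chr19:6141168-6141237, minus strand: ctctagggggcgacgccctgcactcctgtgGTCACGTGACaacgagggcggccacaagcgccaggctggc
Rab21, chr10:115315592-115315653, minus strand: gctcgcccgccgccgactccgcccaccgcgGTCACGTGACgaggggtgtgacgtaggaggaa
Rab5a, chr17:53479107-53479176, plus strand: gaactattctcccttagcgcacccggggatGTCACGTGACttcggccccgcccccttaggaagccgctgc
Tbc1d13, chr2:30133681-30133745, plus strand: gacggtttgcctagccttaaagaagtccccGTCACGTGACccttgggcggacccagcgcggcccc
Vps26a, chr10:62486712-62486781, minus strand: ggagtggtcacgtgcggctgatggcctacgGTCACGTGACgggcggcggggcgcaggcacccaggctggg
Vps26a, chr10:62486950-62487019, minus strand: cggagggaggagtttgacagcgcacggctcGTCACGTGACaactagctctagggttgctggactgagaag

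The second set holds the last 150 bases before the annotated start of 6 genes acetylated at the start in 1 group only: in each group, the 3 with the widest regions among the eligible genes with exactly 1 promoter in the table. Capitals mark CG dinucleotides, because these promoters range from CpG-rich to CpG-poor.
Snx8, after hepatectomy only, chr5:140389309-140389458, minus strand: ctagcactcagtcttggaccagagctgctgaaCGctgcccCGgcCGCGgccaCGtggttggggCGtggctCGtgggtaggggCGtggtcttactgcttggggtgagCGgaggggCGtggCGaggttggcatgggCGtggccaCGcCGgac
Arl13b, after hepatectomy only, chr16:62847041-62847190, minus strand: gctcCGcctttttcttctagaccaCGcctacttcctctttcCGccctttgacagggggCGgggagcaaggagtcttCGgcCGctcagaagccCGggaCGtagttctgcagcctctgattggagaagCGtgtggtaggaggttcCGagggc
Snx30, after hepatectomy only, chr4:59805500-59805649, plus strand: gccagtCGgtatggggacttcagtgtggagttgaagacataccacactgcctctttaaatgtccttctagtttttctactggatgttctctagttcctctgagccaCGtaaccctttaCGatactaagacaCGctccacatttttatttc
Vps25, sham only, chr11:101253557-101253706, plus strand: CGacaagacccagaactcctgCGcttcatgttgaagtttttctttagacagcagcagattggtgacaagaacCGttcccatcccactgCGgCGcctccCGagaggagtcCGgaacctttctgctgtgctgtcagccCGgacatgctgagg
Tbc1d2, sham only, chr4:46650200-46650349, minus strand: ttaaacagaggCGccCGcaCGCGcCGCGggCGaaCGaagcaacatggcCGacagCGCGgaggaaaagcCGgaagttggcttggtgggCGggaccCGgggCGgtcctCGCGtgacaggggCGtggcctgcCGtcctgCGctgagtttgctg
Rab17, sham only, chr1:90967668-90967817, minus strand: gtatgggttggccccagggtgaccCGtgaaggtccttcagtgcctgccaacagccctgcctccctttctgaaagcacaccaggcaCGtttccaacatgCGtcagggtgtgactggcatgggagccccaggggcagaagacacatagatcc

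Across the whole series the sham list held 11602 regions with a median width of 8152.5 bp, and the list after hepatectomy 10170 regions with a median of 14550.5 bp. Wider regions are thus a property of the whole later list. For genes acetylated in both groups, the median widths and ratio of all protein-coding genes are given below. Widths of genes acetylated in 1 group only, of distal regions and of further starts are given without a background width. Peak numbers skipped in the lists were read as peaks of a library that entered no region. Numbers above the highest one listed could not be counted, and placing skipped numbers in a stretch assumes that peaks were numbered along the genome. The skipped numbers made up 26.7% and 28.6% of the numbers in sham libraries 1 and 2, and 12.4% and 21.2% in libraries 1 and 2 after hepatectomy. Depth per library is not given in the files. Of 8 hepatocyte markers, 6 had a listed start, and Serpina1a and Tat had none. Of the 6, 5 had a region there in both groups (66.0% of protein-coding genes did) and Cps1 only after hepatectomy. The 5 included Alb (10096 bp in sham, 18025 bp after hepatectomy) and Hnf4a (35346 and 85422 bp). A start is listed only where a region was assigned, so these counts do not check the tissue label.

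A gene was counted as acetylated at its start where a region overlapped its most upstream listed transcription start site with 1 kb on each side. Of the 99 trafficking genes, 66 (66.7%) were acetylated there in both groups, against 66.0% of protein-coding genes. A further 14 (14.1%, background 15.4%) had a start region only after hepatectomy, 13 (13.1%, background 9.79%) only in sham, and 6 (6.06%, background 8.79%) in neither. The members' shares in both groups and after hepatectomy alone lie near the background, and the share in sham alone is somewhat above it; the lists allow no test of that difference. The net of 1 gene in favour of hepatectomy is not stable: it became -7 under the authors' own gene assignment, -1 without genes in stretches where unlisted peaks of the other group could lie, and 11 without the narrowest 25% of each list. The background moved too: under the authors' assignment 13.7% of protein-coding genes were acetylated only after hepatectomy and 19.1% only in sham, without the stretches 1.57% and 1.41%, and without the narrowest 25% of regions 18.6% and 11.8%.

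**Figure D1:**
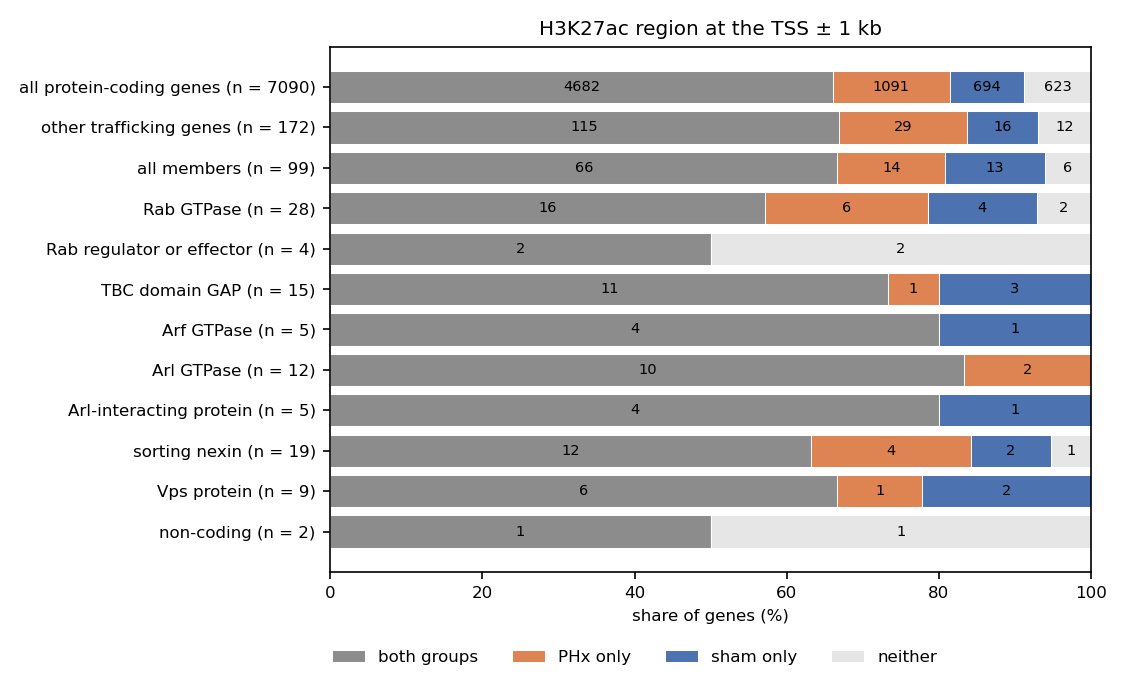
Share of genes (%) of each role, of all 99 members, of other trafficking genes and of all protein-coding genes with an acetylated region at the start in both groups, after partial hepatectomy (PHx) only, in sham only, or in neither (stacked horizontal bars with the number of genes written in each; 1 merged list per group, so no error bars). The Rab GTPases divide into 16, 6, 4 and 2 genes in that order, and all 12 Arl GTPases fall in the first 2 classes.

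Where markers of other liver cells differed between the lists, the region was in the later one. Of 9 endothelial markers, 6 had a listed start, and the others had no assigned region in either list. Of the 6, 5 (Cdh5, Clec4g, Erg, Lyve1 and Pecam1) were acetylated at the start only after hepatectomy (background 15.4%). None was acetylated only in sham (background 9.79%), and Stab2 was in neither (background 8.79%). Of 7 Kupffer and macrophage markers, 3 had a listed start: Csf1r was acetylated only after hepatectomy, and C1qa and Cd68 in both groups. Colec11, the only one of 5 stellate markers with a listed start, was acetylated only after hepatectomy. Sox9, the only one of 4 cholangiocyte markers, was acetylated in both groups. The neutrophil, monocyte and lymphocyte markers had no listed start. Their part in the 14 genes acetylated only after hepatectomy was not tested. In bulk tissue, more cells of a type and more acetylation per cell cannot be told apart.

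Among the 6 Rab GTPases acetylated at the start only after hepatectomy, Rab32, which acts at lysosome-related organelles and mitochondria, had a region of 11226 bp (chr10:10423862-10435087). The nearest sham region lay 720717 bp from its start. Rab27a, which docks secretory granules, had 10421 bp (chr9:72971811-72982231), with no sham region within 181332 bp. Rab18, known from lipid droplets and the endoplasmic reticulum, had 9940 bp on chromosome 18 and no sham region within 247328 bp. For these 3 genes the sham list was therefore empty over a far longer stretch than the region itself.

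Rab44, a large Rab of haematopoietic granules, had 9628 bp (chr17:29329176-29338803), with the nearest sham region 16701 bp away. Rab8b, which carries cargo to the plasma membrane, had 7923 bp (chr9:66819719-66827641), and the nearest sham region was 24640 bp away. It was the only one of the 14 in a stretch without skipped sham peak numbers. Rab29, a Golgi and lysosome Rab that partners Lrrk2, had the narrowest of the 14 regions, 5077 bp (chr1:131792306-131797382), and the nearest sham region was 21503 bp away.

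Sorting nexins gave the widest regions seen only after hepatectomy. Snx8, a SNX-BAR protein, whose membrane-curving BAR domain sits beside the lipid-binding domain, had 27071 bp (chr5:140349322-140376392). A sham region of 19761 bp lay 4232 bp from its upstream start and covered a second listed start 6508 bp downstream, so in Snx8 the groups differ only in whether the upstream start is covered as well. Snx2, which works with retromer, had 20629 bp on chromosome 18, with the nearest sham region 13376 bp away. Snx30 and Snx7 are paralogs: Snx30 had 18879 bp (chr4:59802657-59821535) and Snx7 6100 bp (chr3:117658534-117664633), with no sham region within 35554 and 607510 bp.

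The remaining genes acetylated only after hepatectomy were a HOPS subunit, a TBC protein and a pair of Arl GTPases. Vps39, which binds Rab7 on late endosomes, had 12684 bp (chr2:120173260-120185943), 49661 bp from the nearest sham region. Tbc1d12, a recycling endosome protein, had 11434 bp (chr19:38824101-38835534), 351051 bp from it. Arl13b, a ciliary GTPase, had 20358 bp (chr16:62660779-62681136); that region also overlapped a sham region of 3838 bp assigned to Pros1, 5151 bp from the Arl13b start. Arl15, an Arf-like protein, had 5337 bp (chr13:113929793-113935129), 173805 bp from the nearest sham region.

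Of the 14 regions, 13 joined 1 peak of each library; that of Arl13b joined 2 peaks of library 2. The nearest sham region was over 10 kb from the start in 12 of the 14 genes (85.7%), against 67.8% of the 1091 protein-coding genes in this class. Its median distance was 42607 bp, against 23040 bp. In 7 of the 14, unlisted peaks of both sham libraries could lie in the stretch between listed sham regions, against 484 of the 1091 protein-coding genes.

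The 13 genes acetylated at the start only in sham had regions from 3361 to 10903 bp. Regions of the sham list were narrower as a whole, with a median of 8152.5 bp against 14550.5 bp after hepatectomy. By width percentile within the sham list, the 13 genes ran from 1.4 (Tbc1d22b) to 68.8 (Arf3). Genes acetylated only after hepatectomy ran from 1.1 (Rab29) to 81.3 (Snx8) within the later list. The widest region of the 13 genes was that of Arf3, a trans-Golgi GTPase (chr15:98656629-98667531). The nearest region after hepatectomy was 25991 bp away from the Arf3 start. Rab17, an apical recycling Rab of epithelial cells, had 7265 bp (chr1:90892957-90900221), 77362 bp from the nearest later region. Rab2a, which serves endoplasmic reticulum, Golgi and late endosomes, had 6729 bp (chr4:8532634-8539362), 107950 bp from it. Over the protein-coding genes acetylated only in sham the median distance was 34630 bp, so Rab17 and Rab2a lay further away than that and Arf3 nearer.

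Rab33b, a Golgi and autophagosome Rab, had 4757 bp (chr3:51389795-51394551), 63231 bp from the nearest later region. Rab34, a Rab of cilium and lysosome positioning, had 6154 bp (chr11:78076755-78082908), and a later region lay 2918 bp from its start, so the 3 kb window counts it in both groups. Tbc1d2, a Rab7 GAP, had 8430 bp (chr4:46644364-46652793), 37954 bp from the nearest later region.

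Tbc1d22b had 3361 bp (chr17:29768220-29771580), with 34116 bp to the nearest later region. Tbc1d30 had 4870 bp (chr10:121183649-121188518) at its upstream start, while a second start 40248 bp downstream carried 11085 bp only after hepatectomy. Arl14ep, a partner of Arl14, had 4579 bp (chr2:106802557-106807135) and the longest distance to a later region, 1570859 bp. As with Snx8, the Tbc1d30 values depend on which start is read.

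A pair of sorting nexins and a pair of Vps genes made up the rest. Snx22 had 6357 bp (chr9:65972433-65978789), 4886 bp from the nearest later region. Snx25 had 5541 bp (chr8:46601204-46606744), assigned by the authors to LOC118567567, with a later region 5971 bp away. Vps25, an ESCRT-II subunit, had 9566 bp (chr11:101143221-101152786), joining 2 peaks of sham library 1, and a later region 4111 bp away. Vps18, the core of HOPS and CORVET, had 3802 bp (chr2:119117185-119120986), and a later region of 17328 bp began 3091 bp from its start.

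Thus the HOPS subunits Vps39 and Vps18 fell into opposite classes, although a region of the other group lay 3091 bp from the start of Vps18. In 7 of the 13 genes (53.8%) the nearest later region was over 10 kb away, against 80.3% of the 694 protein-coding genes acetylated only in sham. This share lies under its background, whereas that of the 14 genes above lies over it; neither difference was tested. Their median distance was 25991 bp, against 34630 bp. In 2 of the 13, unlisted peaks of both later libraries could lie in the stretch, against 146 of the 694.

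**Figure D2:**
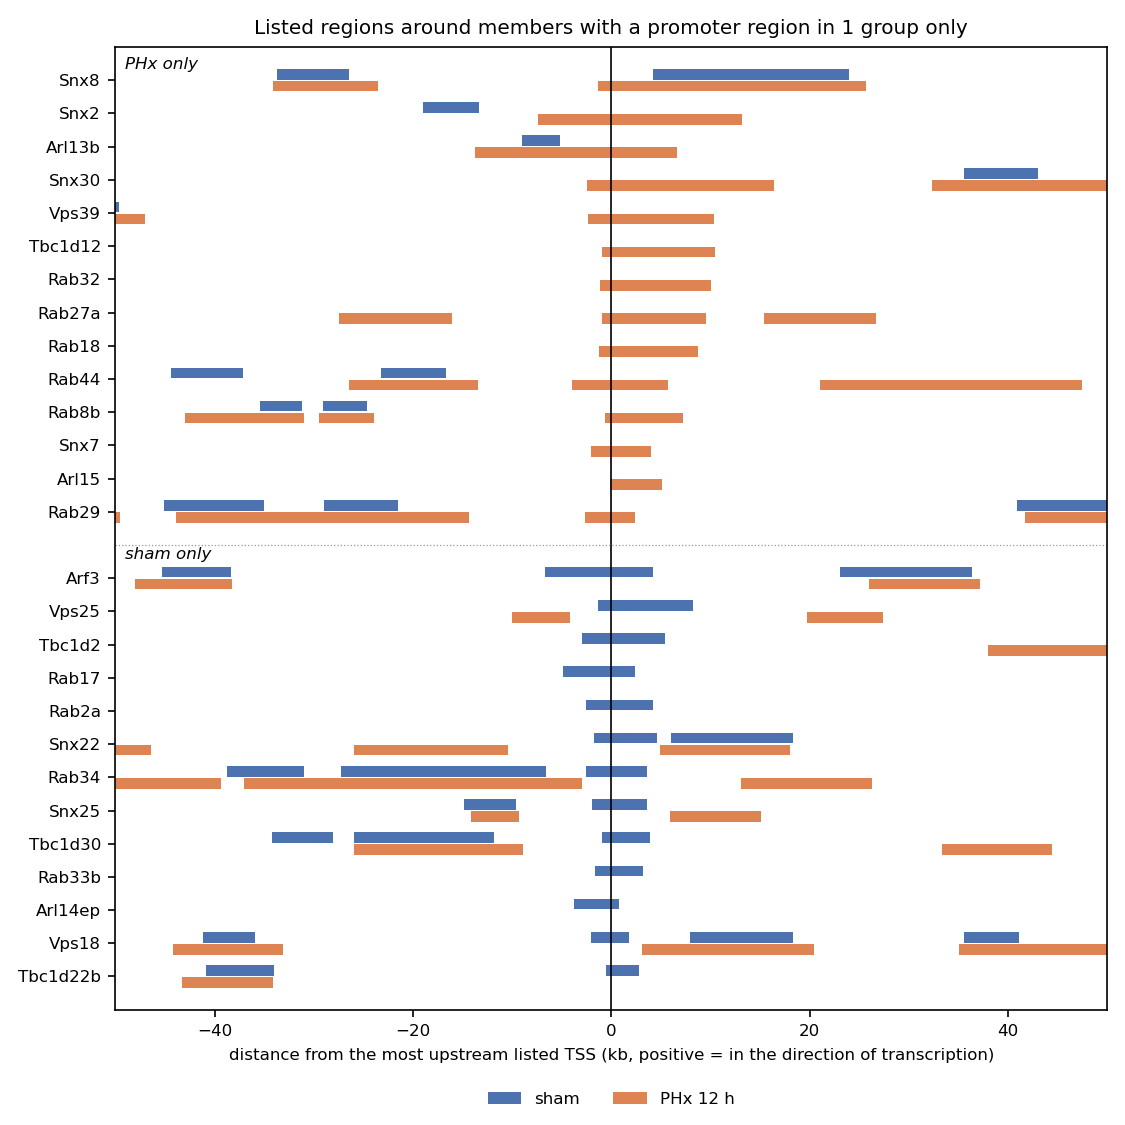
Regions of each group around the start of the 27 genes acetylated at the start in 1 group only, drawn to scale by distance from the start in kb along the gene (blue sham, orange PHx). In 12 of the 14 upper genes no sham bar lies within 10 kb of the start, while 6 of the 13 lower genes (Vps25, Snx22, Rab34, Snx25, Tbc1d30 and Vps18) have a PHx bar within 10 kb.

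The 6 genes with no region at the start in either group were named for regions elsewhere. Rab23, a Rab of Hedgehog signalling, had a region in an exon of 6693 bp in sham and 5362 bp later. Rab30, a Golgi Rab, had a distal region of 7130 bp in sham and 13289 bp later, and the pseudogene Rab7-ps1 had 4025 and 4551 bp. For Rab11fip3, a Rab11 effector, a region of 11878 bp lay 6592 bp from the start after hepatectomy. For Snx31 a sham region of 8777 bp lay 17851 bp away. Rab11fip4, the other Rab11 effector, had 34498 bp only after hepatectomy at a second start 62203 bp downstream.

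In the 66 genes acetylated at the start in both groups, the region was wider after hepatectomy in 63 (95.5%), against 91.4% of the protein-coding genes, and narrower in 3. It was at least 2 times as wide in 32 (48.5%), against 40.0%. The median width went from 8607 bp (quartiles 5492 and 13454) to 19682 bp (12038 and 27389), and the median ratio of later to sham width was 1.89 (quartiles 1.38 and 2.82; range 0.858 to 11.7). Over all 4682 protein-coding genes the medians were 8674 and 16924 bp and the ratio 1.72. As ranks within each list the picture is flatter: 36 members (54.5%) ranked higher after hepatectomy and 30 lower, against 47.3% higher over protein-coding genes. The median change in rank was 5.2 percentile points, against -1.0.

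**Figure D3:**
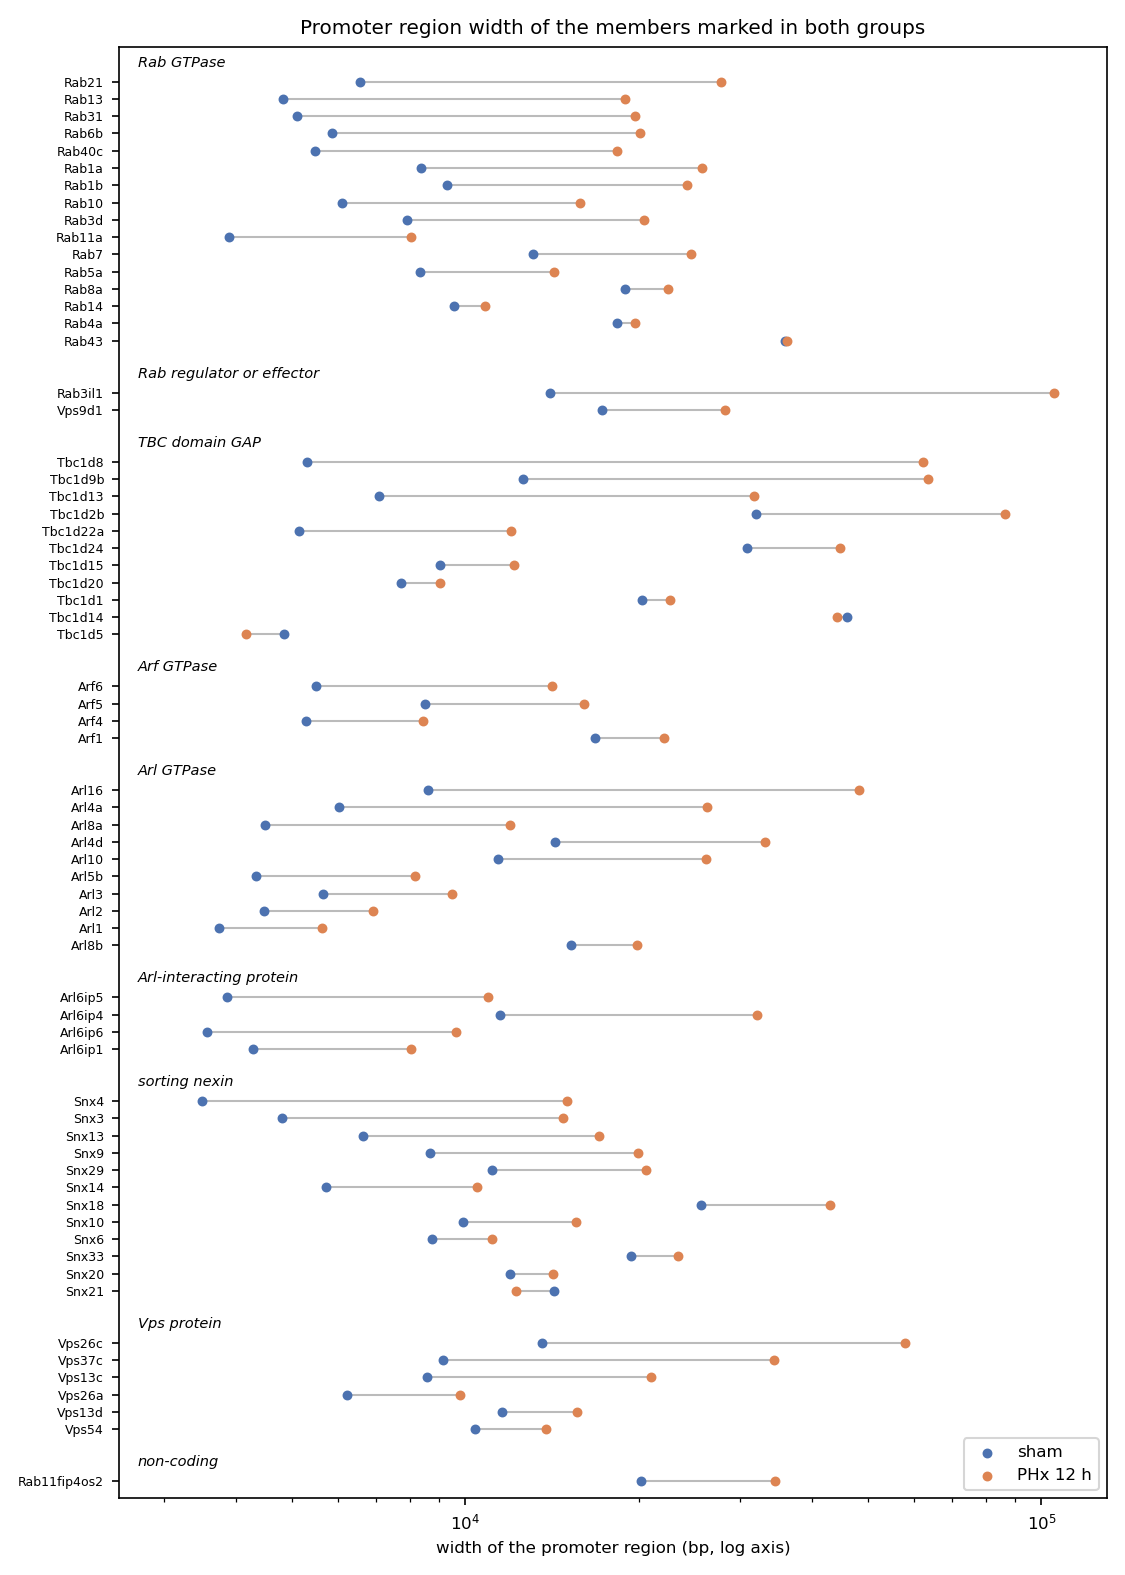
Width of the start region in sham (blue) and after PHx (orange) in bp on a log axis for the 66 genes acetylated in both groups, ordered by role and by ratio; each point is 1 region of a merged list and has no error bar. The orange point lies to the right of the blue one in 63 genes, with the longest line at Tbc1d8, and to its left in Snx21, Tbc1d5 and Tbc1d14.

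Of the Rab GTPases, all 16 acetylated in both groups were wider later, 10 of them at least 2 times, with a median ratio of 2.58 (1.72 over protein-coding genes) and median widths of 8133 and 19904 bp. Rab21, an early endosome and integrin Rab, went from 6573 to 27767 bp (4.22 times). Rab13, which serves cell junctions, went from 4825 to 18953 bp (3.93), and Rab31, between Golgi and endosomes, from 5107 to 19689 bp (3.86). The later Rab31 region held 2 listed protein-coding starts and was assigned to Ppp4r1. It reached 2054 bp downstream of the Rab31 start, against 2024 bp in sham, and 17634 bp upstream, against 3082 bp. Rab6b, a Golgi Rab, went from 5865 to 20119 bp and Rab40c, an adaptor of a ubiquitin ligase, from 5491 to 18330 bp.

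Rab1a and Rab1b, which act between endoplasmic reticulum and Golgi, went from 8390 to 25720 bp and from 9301 to 24254 bp. Rab10 (6101 to 15801 bp), the secretory Rab3d (7918 to 20388 bp) and the recycling Rab11a (3879 to 8057 bp) were also at least 2 times as wide. The early and late endosome Rabs Rab5a (8348 to 14240 bp) and Rab7 (13105 to 24599 bp) had ratios of 1.71 and 1.88. At the low end, Rab8a went from 18904 to 22491 bp, Rab14 from 9554 to 10796 bp, Rab4a from 18340 to 19676 bp and Rab43 from 35852 to 36236 bp (1.01). The low ratios of Rab43, Rab8a and Rab4a belong to regions already wide in sham, whereas Rab14 had only 9554 bp there.

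Ratios fell with sham width in all genes, so they were also read within 4 classes of sham width holding equal numbers of protein-coding genes. Sham width is the divisor of the ratio, so a fall of this kind is partly built in. In the narrowest class (2086 to 6034 bp) the median ratio was 2.57 for 21 members and 2.10 for 1171 protein-coding genes. In the next classes it was 2.58 against 1.78 (13 members), 1.87 against 1.64 (16 members), and 1.31 against 1.41 in the widest (16 members). The 5 Rab GTPases of the narrowest class had a median of 3.43, the 5 of the next 2.59, the 3 of the next 1.88 and the 3 of the widest 1.07. Members thus lay above the background in the 3 narrower classes and below it in the widest, with few genes in each.

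**Figure D4:**
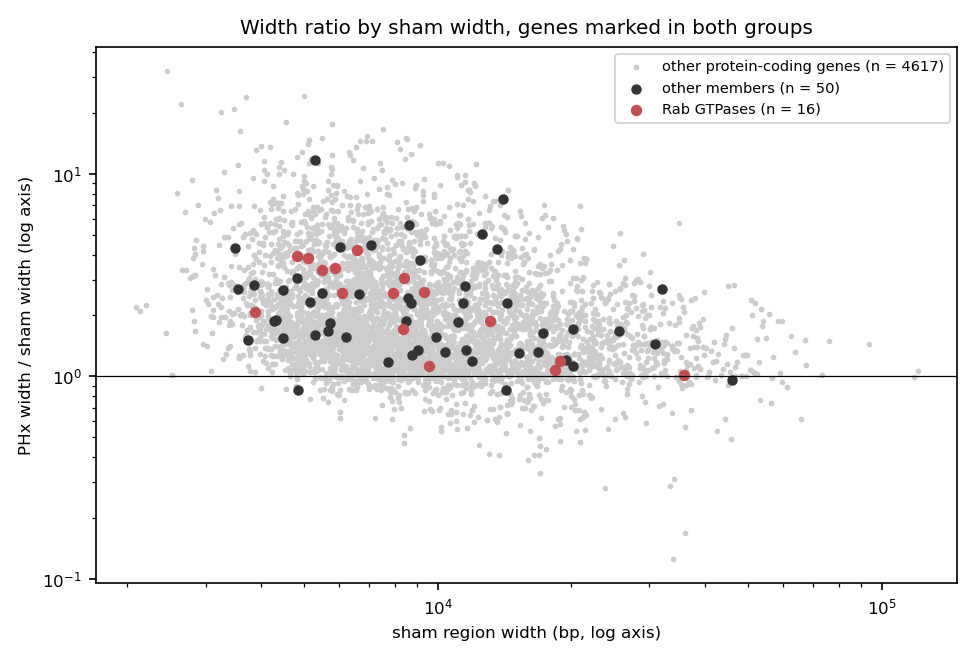
Ratio of PHx to sham width against sham width (bp), both on log axes, for the 16 Rab GTPases (red), the other members (black) and other protein-coding genes (grey) acetylated in both groups; the horizontal line marks equal width and each point is 1 gene. The cloud is highest among narrow sham regions and comes down toward the line on the right, where Rab43, Rab4a and Rab8a lie.

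The TBC proteins covered the whole range of ratios. Tbc1d8 had the largest of all members, 5304 to 62188 bp (11.7 times, rank up by 80.2 percentile points); its later region joined 3 sham regions. Tbc1d9b went from 12601 to 63637 bp, also joining 3, and Tbc1d13, a Rab35 GAP, from 7086 to 31727 bp. Tbc1d2b, among the widest members in both lists, went from 31985 to 86585 bp, and Tbc1d22a from 5149 to 12006 bp. At the other end Tbc1d14, a recycling endosome and autophagy protein with the widest sham region of all members, went from 45933 to 44206 bp. Tbc1d5, a Rab7 GAP that binds retromer, went from 4835 to 4157 bp (0.860).

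The other 4 TBC genes had ratios between 1.12 and 1.45: Tbc1d24 went from 30875 to 44733 bp (both regions assigned to Ntn3, the sham one ending just short of the Tbc1d24 start, so that with the start itself the gene counts as after hepatectomy only), Tbc1d15 from 9027 to 12136 bp, Tbc1d20, the Rab1 GAP, from 7721 to 9052 bp, and Tbc1d1 from 20219 to 22698 bp. The median over the 11 was 1.45, under that of all protein-coding genes. Of the Rab regulators, the exchange factor Rab3il1 had the widest later region of all members, 105377 bp against 14050 bp in sham. It joined 4 sham regions, held 3 listed protein-coding starts and was assigned by the authors to Fads2, so its width is not that of Rab3il1 alone. Vps9d1 went from 17268 to 28280 bp.

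Arf GTPases widened less than Arl GTPases by their medians, 1.74 for 4 genes and 2.10 for 10. Arf6, of the plasma membrane and recycling endosomes, went from 5494 to 14129 bp. The Golgi Arfs had lower ratios: Arf5 went from 8503 to 16047 bp, Arf4 from 5282 to 8440 bp and Arf1, which recruits coats, from 16802 to 22086 bp. Among Arl genes, Arl16 went from 8624 to 48158 bp (5.58 times) and the plasma membrane protein Arl4a from 6038 to 26256 bp (4.35). Arl4d went from 14310 to 33160 bp and Arl10 from 11387 to 26202 bp.

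The paired lysosomal GTPases Arl8a and Arl8b differed: Arl8a went from 4492 to 11953 bp and Arl8b, wide in sham, from 15267 to 19836 bp. The trans-Golgi GTPases Arl5b (4324 to 8189 bp) and Arl1 (3729 to 5633 bp), the ciliary Arl3 (5650 to 9477 bp) and Arl2 (4476 to 6913 bp) had ratios between 1.51 and 1.89. Of the Arl-interacting proteins, Arl6ip5 (3860 to 10945 bp), Arl6ip4 (11504 to 32107 bp) and Arl6ip6 (3553 to 9623 bp) had ratios near 2.8. Arl6ip1, which shapes the endoplasmic reticulum, went from 4274 to 8053 bp.

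Of the 12 sorting nexins acetylated in both groups, 11 were wider later, with a median ratio of 1.76. Snx4, a recycling and autophagy SNX-BAR with the narrowest sham region of the 66 genes, went from 3490 to 15002 bp (4.30). The retromer adaptor Snx3 went from 4810 to 14758 bp, Snx13 from 6650 to 17034 bp and the endocytic Snx9 from 8685 to 19961 bp. Snx29, Snx14, Snx18 and Snx10 had ratios from 1.57 to 1.86, while Snx6, the retromer partner, went from 8743 to 11112 bp and Snx33 from 19411 to 23395 bp.

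The paralogs Snx20 and Snx21 went in opposite directions in bp, but both ranked lower in the later list. Snx20, which binds PSGL-1 in leukocytes, went from 11933 to 14199 bp (1.19, with a rank change of -25.2 percentile points). Snx21 went from 14251 to 12225 bp (0.858, the lowest ratio of the 66, with a rank change of -43.3 percentile points). All 12 sorting nexin regions matched 1 sham region each, so none of these later regions joined several.

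Among Vps genes, Vps26c, a retriever subunit, went from 13571 to 57860 bp (4.26) and joined 3 sham regions. Its retromer relative Vps26a went from 6218 to 9768 bp (1.57). Vps37c of ESCRT-I went from 9136 to 34300 bp, while Vps54 of GARP went from 10411 to 13815 bp. The lipid transfer proteins Vps13c and Vps13d went from 8590 to 20974 bp and from 11566 to 15629 bp. The antisense transcript Rab11fip4os2 went from 20141 to 34498 bp; its later region is the one at the second start of Rab11fip4, and CUT&Tag does not record the strand of transcription.

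In 17 of the 66 genes (25.8%, background 29.6%) the later region overlapped more than 1 sham region. The 49 others matched 1 to 1 and had a median ratio of 1.71, against 1.44 for 3255 protein-coding genes matched that way. Joining was uneven over roles: 6 of 11 TBC genes, 4 of 10 Arl genes, 2 of 16 Rab GTPases and 0 of 12 sorting nexins. Sham regions of 12435 and 16710 bp listed as distal to Tbc1d8 lay within its later start region, as did 6781 bp at Rab21, 14113 bp at Arl4a and 6889 bp at Vps26c.

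**Figure D5:**
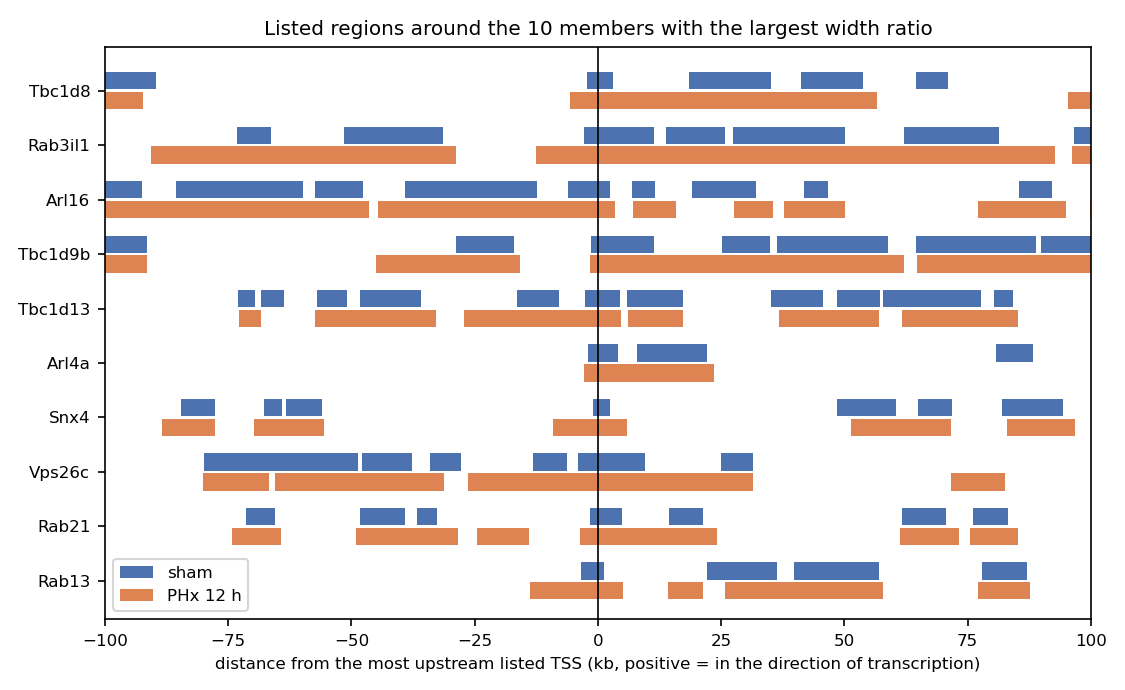
Regions around the start of the 10 members with the largest ratios, by distance from the start in kb along the gene (sham above, PHx below in each pair), drawn to scale. The PHx regions of Tbc1d8, Rab3il1, Tbc1d9b and Vps26c each cover several sham regions, whereas those of Snx4 and Rab13 cover 1.

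Regions reached further downstream than upstream in both groups. In sham the members' regions extended by a median of 2319 bp upstream and 4717 bp downstream of the start, and later by 5509 and 10688 bp. The median gain was 1667 bp upstream and 3339 bp downstream, against 1481 and 2701 bp over protein-coding genes. In 57 of 66 members (86.4%) the region was longer on both sides, against 68.7% of protein-coding genes. In 23 (34.8%) it gained more upstream than downstream, against 41.4%.

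Further starts are listed for some genes, only where a region was assigned to that transcript, so a covered second start is partly built into the list. Only after hepatectomy, a region lay over or within 1 kb of a start further downstream in Rab31 (29177 bp downstream, 8131 bp wide), Rab7 (25222 bp, 11558 bp wide), Rab44 (21825 bp, 26444 bp wide), Snx30 (32406 bp, 23080 bp wide) and Tbc1d22a (a start beyond its second, 66364 bp, 16535 bp wide). The Rab7 region lay 400 bp from that start and did not reach it. In both groups a second start with a region of its own was covered in Snx29 (16222 and 27355 bp), Snx9 (4912 and 7344 bp), Tbc1d1 (8198 and 20954 bp) and Tbc1d14 (12637 and 13267 bp). At Tbc1d1 and Tbc1d14 the second start had a larger ratio, 2.56 and 1.05, than the upstream one, and at Snx29 and Snx9 a smaller one, 1.686 and 1.495. The later region at the second Tbc1d1 start overlapped 2 sham regions, of 8486 and 8198 bp. Its ratio of 2.56 is to the 8198 bp region alone.

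Which gene a region was assigned to also differed between the lists. The counts in this paragraph are of members only, and the same shares over all genes were not computed. Over all protein-coding genes, 19.1% were acetylated only in sham under the authors' assignment, against 9.79% by position. Of 79 sham start regions 75 carried the member's own name, but of 80 later ones only 64 did. The other 16, among them those of Rab1a, Rab1b, Rab3d, Rab7, Rab31, Snx4, Snx13 and Vps37c, were assigned to a neighbour. Of the 21 members named in the sham list alone, 11 had a start region in both groups when position was read, so absence of a name from the later list is not absence of acetylation there. In 9 later regions and 0 sham regions another protein-coding start was listed inside. The 9 were those of Arl10, Arl13b, Rab1b, Rab31, Rab3d, Rab3il1, Tbc1d13, Tbc1d24 and Tbc1d9b, so their later widths are not those of the member alone. Each library gave 1 peak to 64 of the 79 sham and 64 of the 80 later start regions; among the rest, library 2 after hepatectomy gave several peaks in 15 and library 1 in 4.

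Distal regions, over 3 kb from the start of the gene assigned, numbered 23 in sham (18 genes) and 13 after hepatectomy (13 genes). In sham, 4 of 23 (17.4%, background 18.6%) overlapped no later region: those assigned to Snx2, Snx31, Tbc1d22a (11205 bp) and Vps13d (4224 bp). After hepatectomy, 5 of 13 (38.5%, background 37.6%) overlapped no sham region: Arl5b (9857 bp), Rab11fip3 (11878 bp), Rab11fip4 (22844 bp), Snx22 (15612 bp) and Snx25 (9173 bp). Both shares are near the background. With a reciprocal overlap of 50% required, 16 of the 23 sham regions (69.6%, all sham distal regions 71.1%) and 7 of the 13 later ones (53.8%, all 61.4%) had no partner.

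Of the 23 sham distal regions, 10 (43.5%) overlapped a later region classed as a promoter, against 36.1% of all sham distal regions; of the 13 later ones, 0 overlapped a sham promoter region, against 1.56%. Tbc1d22a and Vps13d had the most distal regions, 3 each in sham. In 8 genes a distal region of sham overlapped a later distal region of the same gene, wider later in 7 and narrower in 1. The wider ones were those of Snx4 (12031 and 20358 bp), Rab14 (6021 and 14050 bp), Rab6b (8820 and 11726 bp), Tbc1d15 (7132 and 9798 bp), Vps18 (10380 and 17328 bp), Rab30 and Rab7-ps1; the narrower one was that of Rab23.

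The promoter table held 81 of the 99 genes with 113 promoters, searched over the 250 bases before the start on both strands. Their median GC content was 62.0% and the median ratio of observed to expected CpG 0.77; the ratio was above 0.6 in 80 promoters (70.8%), against 60.3% of 7495 promoters of protein-coding genes and 34.0% of all 32851 in the table. By the gene's class, it was above 0.6 in 76.5% of the promoters listed for genes acetylated in both groups (all protein-coding genes of that class 64.2%). The share was 63.6% of 11 promoters for the class after hepatectomy only (51.9%) and 52.9% of 17 for sham only (60.4%). These are all promoters the table lists for a gene, 17 for 11 genes in the last class, and need not be the start at which acetylation was read. Among the sequences printed above, Tbc1d2 held 28 CpG in 250 bases (ratio 1.03), Snx8 held 19 (0.75), and Rab17 held 3 (0.15), the fewest of the 6.

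The CLEAR element occurred in 6 promoters of 5 genes (5.31%), against 0.44% of protein-coding promoters and 0.24% of the table. These genes, Arl2, Rab21, Rab5a, Tbc1d13 and Vps26a, were all acetylated at the start in both groups, as were 66.7% of members and 66.0% of protein-coding genes. Their ratios were 1.54, 4.22, 1.71, 4.48 and 1.57. The 31 protein-coding genes with the element also include genes of each other class, such as Akap11 (after hepatectomy only), Btbd7 (sham only) and Commd9 (neither). The match began between 32 bases (Rab21) and 184 bases (Vps26a) before the start. The E-box CACGTG, which lies inside the CLEAR element and so overlaps it, occurred in 17 promoters (15.0%), against 8.09% of protein-coding promoters.

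Of the other motifs, the GC box GGGCGG occurred in 69.0% (protein-coding 56.7%), the CCAAT box CCAAT in 31.0% (33.7%), the ETS motif CCGGAAG in 11.5% (11.1%), the AP-1 motif TGANTCA in 7.08% (5.11%) and the STAT motif TTCNNNGAA in 6.19% (5.68%). The CRE TGACGTCA occurred in 3.54% (2.23%), the NRF1 motif in 0.885% (1.41%), the YY1 motif in 0.885% (0.52%) and the C/EBP motif TTGCGCAA in 0 promoters (0.213%). These are matches of letters in a short window and describe the promoters only.

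Other genes of the trafficking machinery were read from 7 lists of 303 genes, of which 172 had a listed start. Of these, 115 (66.9%, background 66.0%) were acetylated there in both groups with a median ratio of 1.78 (background 1.72). A further 29 (16.9%, background 15.4%) were acetylated only after hepatectomy, 16 (9.30%, background 9.79%) only in sham and 12 (6.98%, background 8.79%) in neither, all near the background. The counts of each list follow in that order, and the lists are too short to read a share from. Exchange factors, GDIs and prenylation genes for Rabs divided into 15, 6, 2 and 1, and Rab effectors and tethers into 18, 6, 4 and 2. Those acetylated only after hepatectomy included the Rab effectors Sytl1 (42465 bp) and Rilpl1 (20483 bp), the exchange factors Dennd4a (18396 bp) and Rin1 (14084 bp), and Gdi2 (14645 bp), which extracts Rabs from membranes. Those only in sham included Eea1, the Rab5 effector that tethers early endosomes (11007 bp), and the exchange factors Madd (7489 bp) and Dennd6a (5619 bp).

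Arf exchange factors and GAPs had the highest median ratio of the 7 lists, 2.20, and divided into 23, 3, 3 and 2; Adap1, an Arf GAP, had 99656 bp only after hepatectomy, and Cyth2 (11928 bp) and Gbf1 (5363 bp), both Arf exchange factors, had regions only in sham. COPI and COPII coats divided into 11, 3, 0 and 2 with a median ratio of 1.33; Sec24d (13740 bp), Arcn1 (12996 bp) and Cope (11612 bp) were acetylated only after hepatectomy. Clathrin and its adaptors divided into 24, 7, 2 and 1, with Ap1g2 (35833 bp) and Ap5b1 (30209 bp) only after hepatectomy and Ap2a1 (5652 bp) only in sham. ESCRT genes not named Vps divided into 10, 1, 2 and 0, with Stam (4416 bp) after hepatectomy and Chmp1a (12487 bp) and Tsg101 (7132 bp) in sham. SNARE genes divided into 14, 3, 3 and 4, with Snap23 (25622 bp) after hepatectomy and Stx7 (6647 bp) and Sec22b (5623 bp) in sham.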

How the data were processed

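H3K27ac CUT&Tag of mouse liver was read from 1 annotated region table per group (2 libraries each). Per the submitters' processing notes the tools were Bowtie2, SEACR, ChIPseeker and DiffBind; the notes used here give neither versions nor roles. The deposited tables hold, per the file headers, positions on GRCm39, widths and the peaks joined from each library; they hold no count, signal or score. Gene name, strand and start site are the authors' assignment.

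Members were matched by name. The members, gene lists, motifs and comparisons were chosen with earlier results of these data known. A gene was called acetylated where a region shared at least 1 bp with its most upstream listed start and 1 kb on each side. Widths were compared as ratios; overlap needed 1 bp. Protein-coding status came from a RefSeq GRCm38.p6 table, in which 264 of 10925 names had no match. All genes in 1 group only, the 10 largest and 5 smallest width ratios, the 5 widest regions per group and genes with 3 or more distal regions were named; others are given by role. Promoter sequences were planned only from a table of the files' build; the RefSeq promoters used are of another build, a departure from that plan, and serve as sequence only.

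Alternatives were other windows, every listed start, the authors' assignment, the narrowest 25% of regions left out, at least 500 bp covered, unused peak numbers, width ranks, 1 to 1 pairs and reciprocal overlap. The overlap scripts were tested on simulated data. Python 3.11.15, pandas 2.3.3, numpy 2.4.6 and matplotlib 3.10.9 were used. With 1 merged list per group there was no test.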

Additional observations from a re-analysis of the deposited data

How the results depend on the processing

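The gene counts kept within 1.5 times under the other windows and under 500 bp of coverage. The excess of genes acetylated only after hepatectomy over those only in sham was 1 as reported. It was 2 with the start itself, 2 with 3 kb and 2 with every listed start, 11 without the narrowest 25% of regions, -7 under the authors' assignment and -1 without stretches holding unused peak numbers. Under the authors' assignment, 22 genes instead of 13 were acetylated only in sham, and 19.1% instead of 9.79% of protein-coding genes. Without stretches holding unused peak numbers, only 1 of the 14 (7.14%) and 2 of the 13 (15.4%) remained. Of the protein-coding genes in these classes, 10.2% and 14.4% remained, which is 1.57% and 1.41% of all protein-coding genes. Without the narrowest 25%, 43 instead of 66 genes were acetylated in both groups, and distal regions after hepatectomy numbered 8 instead of 13, of which 3 instead of 5 had no overlap. Reciprocal overlap of 50% raised the sham distal regions without overlap from 4 to 16 (71.1% of all sham distal regions). The share of members higher after hepatectomy was 95.5% by width and 54.5% by rank. The causes of these shifts were not tested, beyond the fewer regions or genes that a setting leaves. The median width ratio stayed between 1.71 and 1.89 in the 5 alternatives run. Through all settings but the unused numbers, 7 genes kept the call of acetylation only after hepatectomy (Arl13b, Rab27a, Rab32, Snx2, Snx30, Tbc1d12 and Vps39) and 6 that of sham only (Arf3, Rab17, Rab2a, Snx22, Tbc1d2 and Vps25). No paired analysis was possible because each group has 1 merged list with no values per library, and leaving out each library was not run for the same reason. Windows of the start itself and of 3 kb for joined regions (16 and 18 against 17) were added after seeing the data. Depth is unknown, so absence of a region is not absence of acetylation.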
